A study of Mus musculus with 6 samples.

Results

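Costimulatory and checkpoint receptors set whether a CD4+ T cell that has met its antigen goes on to divide or is held back. They were followed here through 10 genes, Cd28, Icos, Ctla4, Pdcd1, Btla, Tigit, Cd27, Tnfrsf4, Tnfrsf9 and Tnfrsf18. The members were every probe set annotated to exactly 1 of these genes, which gave 10 probe sets, 1 per gene, of 34760 on the array. The samples were CD4+ T cells of C57BL/6 mice taken at 6 weeks of age, 3 arrays from wild-type (WT) mice and 3 from mice deficient in cystathionine beta-synthase (CBS-KO), an enzyme that uses homocysteine and produces hydrogen sulfide. The labels name no treatment. They do not say how the deficiency was made, whether it was limited to T cells, how the cells were isolated or whether animals were pooled.

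A T cell needs a signal beside that of its antigen receptor, and CD28 supplies it when it meets CD80 or CD86 on an antigen-presenting cell. ICOS is a relative of CD28 that appears on activated cells, CTLA-4 takes the same ligands away from CD28 and holds the response back, and PD-1 (gene Pdcd1), BTLA and TIGIT are further inhibitory receptors. CD27, OX40 (gene Tnfrsf4), CD137 (gene Tnfrsf9) and GITR (gene Tnfrsf18) belong to the TNF receptor superfamily and signal through TRAF adaptors to NF-kB. Regulatory T cells carry CTLA-4, GITR, TIGIT and OX40 at high levels even at rest, while naive cells carry CD28, CD27 and BTLA.

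Cd28, Ctla4 and Icos lie next to each other in that order on chromosome 1, and Tnfrsf4 and Tnfrsf18 are neighbouring coding genes on chromosome 4. The bases upstream of the start sites are shown for the pair of receptor genes with the most negative differences among those with a sequence, Btla and Tnfrsf9 (which has 2 start sites), and for Ctla4, the member with a positive difference. RefSeq promoter sequences of build GRCm38.p6 matched 8 of the 10 members, and Cd28 and Icos were not among them. Each line gives the 250 bases before a start site, and capitals mark matches, on either strand, to GGAAA (the core of an NFAT site), TGANTCA (AP-1), the NF-kB consensus, TGTGGT (RUNX) or GTAAACA (forkhead).
Ctla4, chr1:60908775-60909024, plus strand: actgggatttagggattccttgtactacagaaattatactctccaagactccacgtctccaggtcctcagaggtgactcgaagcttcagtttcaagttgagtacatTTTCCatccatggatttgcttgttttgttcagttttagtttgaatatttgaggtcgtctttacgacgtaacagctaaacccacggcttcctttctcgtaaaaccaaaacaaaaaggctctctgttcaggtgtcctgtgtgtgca
Btla, chr16:45224087-45224336, plus strand: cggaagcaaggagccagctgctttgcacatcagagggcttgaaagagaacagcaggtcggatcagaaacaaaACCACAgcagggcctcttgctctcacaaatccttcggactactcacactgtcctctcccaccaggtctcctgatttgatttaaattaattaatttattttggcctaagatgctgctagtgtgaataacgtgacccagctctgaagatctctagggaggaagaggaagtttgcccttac
Tnfrsf9, the upstream start, chr4:150919905-150920154, plus strand: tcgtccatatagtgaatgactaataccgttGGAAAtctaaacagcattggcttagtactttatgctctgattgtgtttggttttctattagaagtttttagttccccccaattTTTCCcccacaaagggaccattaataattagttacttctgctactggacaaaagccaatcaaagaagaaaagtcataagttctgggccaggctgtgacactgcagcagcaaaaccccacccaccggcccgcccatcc
Tnfrsf9, the downstream start, chr4:150927749-150927998, plus strand: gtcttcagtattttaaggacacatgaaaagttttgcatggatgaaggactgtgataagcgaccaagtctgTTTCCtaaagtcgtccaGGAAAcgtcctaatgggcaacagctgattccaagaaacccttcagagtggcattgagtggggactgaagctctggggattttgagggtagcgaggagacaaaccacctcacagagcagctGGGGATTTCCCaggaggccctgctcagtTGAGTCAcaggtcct
The downstream Tnfrsf9 start was, of the 9 member promoters, the only one with a match to the NF-kB or the AP-1 letters, which 4.11% and 6.75% of all 32851 promoters of this length hold. Its NF-kB letters matched in 2 overlapping frames beginning 43 and 42 bases before the start, and a GGAAA match on the other strand lies inside them. GGAAA was found in 8 of the 9 member promoters, against 55.6% of all promoters, TGTGGT in 2 (14%), and GTAAACA in 0 (3.17%). These matches describe letters in the sequence, and the arrays do not measure binding.

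All 10 members passed the filter on low signal, with mean levels between the 76.8th and the 97.8th percentile of all probe sets. Values were tested as log2(intensity + 16), directions are CBS-KO minus WT, and a probe set was called at a limma p of at most 0.05 after Benjamini-Hochberg adjustment over the 20856 probe sets tested. Of the 10 members, 1 (Cd28) was called lower and 0 were called higher, where 4.47% of all tested probe sets were called lower, 5.09% higher and 9.57% in either direction. The difference was negative in 9 of 10 members, against 57.2% of all tested probe sets. At an unadjusted limma p of at most 0.05, 5 members were lower, against 17.3% of all tested probe sets lower and 30.9% in either direction. These were Cd28, Icos, Btla, Cd27 and Tnfrsf9, the same 5 in which every CBS-KO array lay below every WT array, which held for 21.7% of all tested probe sets. The median difference of the 10 members was -0.44, against -0.05 over all tested probe sets. A permutation of 3 against 3 arrays cannot give a two-sided exact p below 0.1, and these 5 genes had that value. The labels call the arrays biological replicates without naming the animals, so the p-values measure the spread between these samples.

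Before the results, 1 feature of the arrays has to be stated. Both groups carried signal of cells other than CD4+ T cells, some of it higher in CBS-KO, and the CBS-KO arrays differed among themselves. Erythroid genes were called higher in 7 of 7 tested, neutrophil genes in 11 of 12 and monocyte and macrophage genes in 10 of 11. Their mean log2 levels were 7.65 to 8.39, 6.87 to 7.58 and 8.03 to 8.80 in WT against 10.62 to 11.87, 10.41 to 10.86 and 10.07 to 10.70 in CBS-KO. Of 12 tested CD4 T cell identity genes, 3 were called lower (Cd3d, Cd3g and Cd2), and their mean log2 level was 12.26 to 12.36 in WT, against 11.68 and 11.29 in CBS-KO 1 and 3, with CBS-KO 2 between these and WT. The difference was negative in 12 of the 12 identity genes (median -0.59), against 9 of the 10 receptor genes (median -0.44) and 57.2% of all tested probe sets. Every CBS-KO array lay below every WT array in 11 identity genes, against 5 receptor genes and 21.7% of all tested probe sets. A lower level was thus not particular to the receptor genes. Without WT 2 the identity list had 0 calls and the erythroid, neutrophil and monocyte lists 2, 5 and 0, and without CBS-KO 2 they had 12, 7, 12 and 10. The share of all tested probe sets called in either direction was 0.345% and 30.8% in these runs, against 9.57% with all arrays. Genes of NK cells (4 of 8, Fcer1g, Gzma, Tyrobp and Ncr1), dendritic cells (3 of 8, Flt3, Zbtb46 and Clec9a) and platelets (2 of 6, Gp9 and Gp5) were called higher too, B cell genes in 0 of 7, and 1 of 6 CD8 T cell genes, Eomes, was called lower. The other 4 NK cell genes were not called, and 1 of the 8 had a negative difference. Which cells the called genes came from was not tested. In the WT arrays the mean log2 level was 9.47 to 10.07 for the B cell list and 9.64 to 9.79 for the CD8 T cell list. The B cell mean differed among the CBS-KO arrays, at -0.33, 1.13 and -0.88 from WT in CBS-KO 1 to 3. The CD8 T cell mean stood at -0.12, 0.24 and -0.49. In both, CBS-KO 2 lay above every WT array. In bulk RNA, fewer T cells and less RNA per T cell cannot be told apart. The targeted gene does not check the labels, since the Cbs probe set had log2 levels of 7.19 to 7.48 in WT and 7.25 to 7.63 in CBS-KO. Y-linked signal was present in CBS-KO 1 and 2 and in no WT array, so sex and genotype were partly confounded.

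Cd28, the main costimulatory receptor of naive T cells, fell to 55.2% of the WT level. The WT arrays (replicates 1 to 3) read 6766, 6157 and 5853 intensity units, and the CBS-KO arrays, in the same order, 3543, 4555 and 2529. The groups did not overlap, with CBS-KO 2 nearest to WT and CBS-KO 3 farthest, and the log2 difference was -0.86 (SE 0.21, n = 3 per group, 95% confidence interval -1.35 to -0.37, limma adjusted p = 0.0487). The adjusted p lay just under the threshold, and leaving out WT 1, WT 2, WT 3 or CBS-KO 1 raised it to 0.177, 0.163, 0.107 or 0.143. Over all alternatives it ranged from 0.00725 to 0.31, and the direction was negative in each.

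Icos, the inducible relative of CD28 that supports follicular helper and effector cells, had intensities of 3127, 2960 and 2896 in WT and 2209, 2093 and 1460 in CBS-KO 1 to 3. The WT arrays were tightly grouped and lay above the whole CBS-KO group. The log2 difference of -0.66 (SE 0.17, 95% confidence interval -1.05 to -0.26) did not pass the threshold (limma adjusted p = 0.0536). It passed without CBS-KO 2 (0.0289) and without CBS-KO 3 (0.0391), where 14.6% and 2.69% of all tested probe sets were called lower and 16.3% and 3.83% higher. Without WT 1, WT 2, WT 3 or CBS-KO 1 it did not pass, and the limma adjusted p reached 0.189.

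Ctla4, the inhibitory receptor that competes with CD28 for its ligands, lies between these genes on the chromosome. Its intensities were 1697, 1113 and 1827 in WT and 1712, 2378 and 1072 in CBS-KO. CBS-KO 2 was the highest and CBS-KO 3 the lowest of all 6 arrays, so the groups overlapped fully. The log2 difference was 0.11 (SE 0.32, 95% confidence interval -0.65 to 0.87, limma adjusted p = 0.852).

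Pdcd1, which encodes the inhibitory receptor PD-1, had intensities of 741, 826 and 872 in WT and 807, 793 and 526 in CBS-KO. CBS-KO 1 and 2 lay within the WT range, and only CBS-KO 3 lay below it. The log2 difference was -0.22 (95% confidence interval -0.67 to 0.24, limma adjusted p = 0.487). Btla, whose product inhibits lymphocytes after binding HVEM, had the most negative difference of the 10 genes and the widest spread among CBS-KO arrays. Its intensities were 2070, 2086 and 1770 in WT against 1024, 1446 and 587 in CBS-KO, without overlap. The log2 difference of -1.03 had an SE of 0.31 and did not pass (95% confidence interval -1.76 to -0.30, limma adjusted p = 0.076). Without CBS-KO 2, the CBS-KO array nearest to WT, it passed (-1.33, 0.0121), where 14.6% of all tested probe sets were called lower. With any other array left out it did not pass, and the limma adjusted p reached 0.221. Tigit, the inhibitory receptor that binds CD155, was the member with the smallest difference, -0.01 (95% confidence interval -0.51 to 0.50, limma adjusted p = 0.991). Its intensities were 1048, 1551 and 1346 in WT and 1483, 1460 and 1000 in CBS-KO, and the groups overlapped.

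Among the TNF receptor genes, Cd27, a costimulatory receptor of naive and memory cells, had intensities of 6308, 6475 and 6030 in WT and 4438, 5436 and 3173 in CBS-KO. The groups did not overlap, and the log2 difference of -0.56 (SE 0.19, 95% confidence interval -1.0 to -0.12) did not pass (limma adjusted p = 0.0987). It passed without CBS-KO 2 (-0.74, 0.0163), where 14.6% of all tested probe sets were called lower. With any other array left out it did not pass, and the limma adjusted p reached 0.256. Tnfrsf9, the gene of the activation-induced receptor CD137, stood at 1273, 1380 and 1611 in WT and 663, 1030 and 550 in CBS-KO. The groups did not overlap. The log2 difference was -0.96 (SE 0.24, 95% confidence interval -1.52 to -0.39), and the limma adjusted p of 0.052 missed the threshold. Without CBS-KO 2 it was 0.00423, in the same run with 14.6% of all tested probe sets called lower. With any other array left out it stayed above the threshold and reached 0.169.

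Tnfrsf4, the gene of the costimulatory receptor OX40, had intensities of 1312, 1373 and 1676 in WT and 1261, 1343 and 895 in CBS-KO. CBS-KO 2 reached into the WT range, and the log2 difference was -0.33 (95% confidence interval -0.77 to 0.11, limma adjusted p = 0.281). Tnfrsf18, the gene of GITR, which marks regulatory and activated T cells, had intensities of 2236, 1953 and 2626 in WT and 2187, 3111 and 1455 in CBS-KO. As for Ctla4, CBS-KO 2 was the highest and CBS-KO 3 the lowest array. The log2 difference was -0.07 (95% confidence interval -0.72 to 0.58, limma adjusted p = 0.899).

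**Figure D1:**
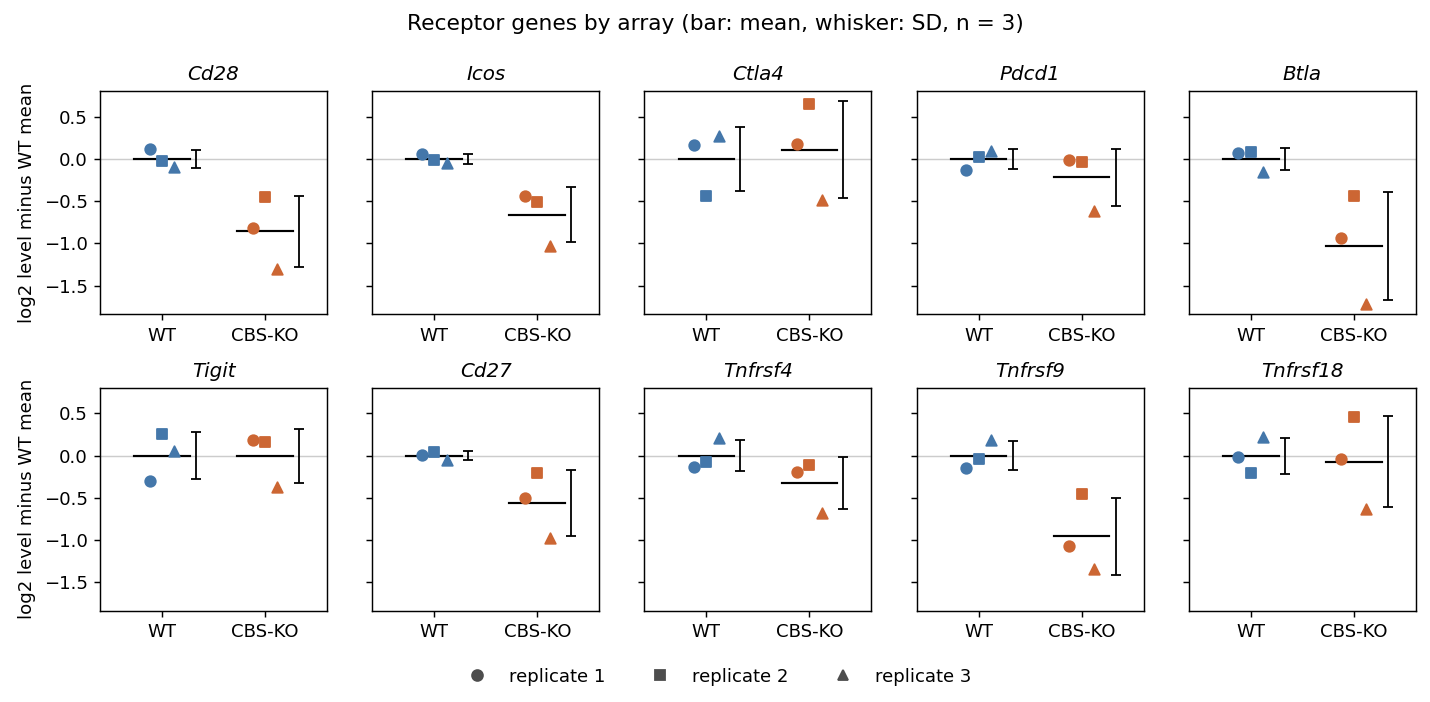
Each panel plots 1 receptor gene, with the log2 level minus the WT mean on the y axis and the WT and CBS-KO arrays on the x axis; point shapes are replicate numbers, bars are means and whiskers SDs (n = 3). The groups are separate, CBS-KO lower, for Cd28, Icos, Btla, Cd27 and Tnfrsf9 and overlap for the other 5 genes, and CBS-KO 3 is the lowest array in every panel.

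The 10 genes shared their lowest array, while the order of the other arrays differed between them. CBS-KO 3 was the lowest of all 6 arrays in 10 of 10 members, which held for 33% of all tested probe sets. CBS-KO 2 was the highest and CBS-KO 3 the lowest CBS-KO array in 7 of 10 members, against 32.3% of all tested probe sets, the exceptions being Icos, Pdcd1 and Tigit. In every tested CD4 T cell identity gene, too, CBS-KO 3 was the lowest of all 6 arrays and CBS-KO 2 the highest CBS-KO array. Neither pattern was therefore particular to the receptor genes. The SD among CBS-KO arrays was larger than among WT arrays in 10 of 10 members, from 1.13-fold in Tigit to 7.54-fold in Cd27. It was also larger in every tested CD4 T cell identity gene, from 1.91-fold in Cd247 to 10.8-fold in Cd6. The share over all tested probe sets was not counted, so the larger SD cannot be called particular to the receptor genes. The CD4 T cell identity mean stood -0.63, -0.31 and -1.02 from WT in CBS-KO 1 to 3 and the erythroid mean 3.47, 2.55 and 3.80, so that CBS-KO 3 had the lowest T cell and the highest erythroid signal and CBS-KO 2 the highest T cell and lowest erythroid signal of the CBS-KO arrays. The part of these other cells in the differences of the receptor genes was not tested. With sex as a model term, where the estimate rests on CBS-KO 3, 7 members were called lower, against 12.8% of all tested probe sets, and Ctla4, Tigit and Tnfrsf18 were not.

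**Figure D2:**
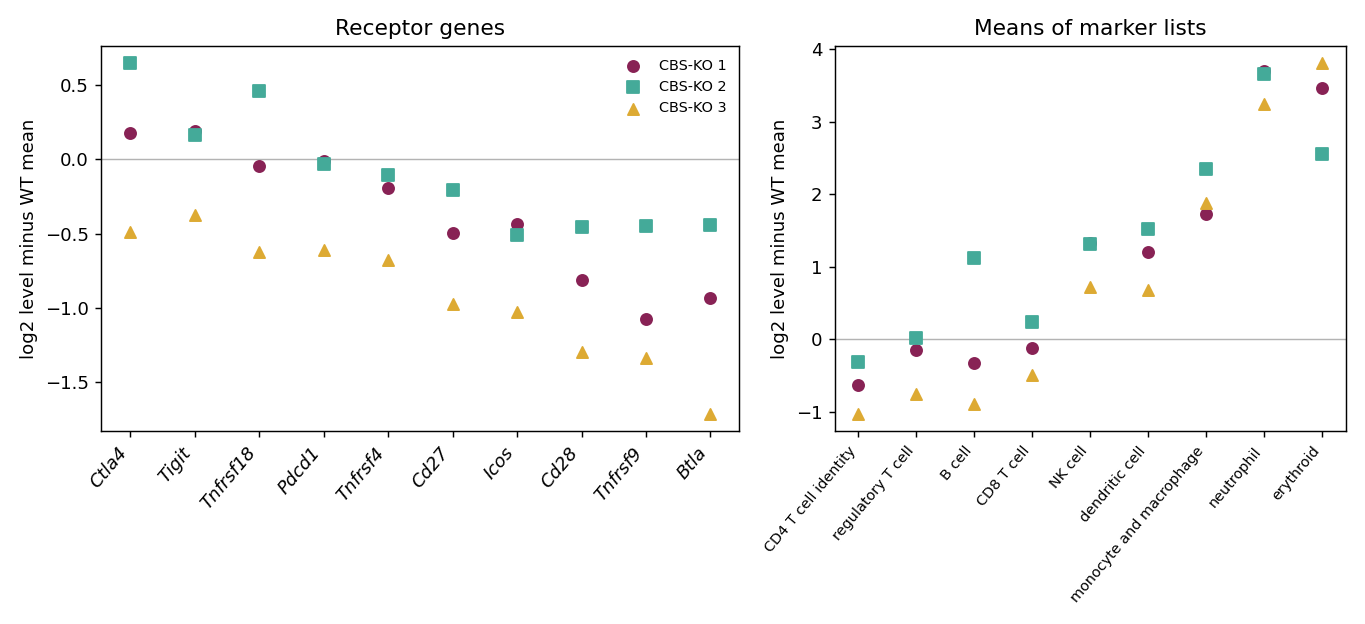
The left panel plots, for each receptor gene, the log2 level of each CBS-KO array minus the WT mean, and the right panel the same for the mean of each marker list; shapes and colours are the 3 CBS-KO arrays. CBS-KO 3 is the lowest for all 10 receptor genes and for CD4 T cell identity (-1.02) and the highest for the erythroid list (3.80).

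To set the receptor genes against the T cell RNA of the same array, each array was shifted to a common mean of the 12 identity genes, which moved the median difference of all tested probe sets from -0.05 to 0.61. Apart from Cd4, these 12 are not specific to CD4+ T cells, so the scale does not separate CD4+ from CD8 T cells. On that scale the members ranged from Btla, Tnfrsf9 and Cd28 at -0.38, -0.30 and -0.20 through Icos and Cd27 at 0.00 and 0.09 to Tnfrsf4 (0.33), Pdcd1 (0.44), Tnfrsf18 (0.59), Tigit (0.65) and Ctla4 (0.77). Ctla4 and Tigit were called higher (limma adjusted p = 0.0481 and 0.0485), but so were 37.2% of all tested probe sets (0.36% were called lower), since 7750 were called higher and 75 lower in place of 1062 and 933, and both genes stood close to the median of all probe sets. Relative to the identity mean, the CBS-KO arrays lay above the WT arrays in Ctla4, Pdcd1, Tigit, Cd27 and Tnfrsf18, as 63.4% of all tested probe sets did. Cd28 and Btla lay below the WT arrays on this scale too, as 1.53% of all tested probe sets did, and neither was called (Cd28 0.31 and Btla 0.161, limma adjusted p).

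**Figure D3:**
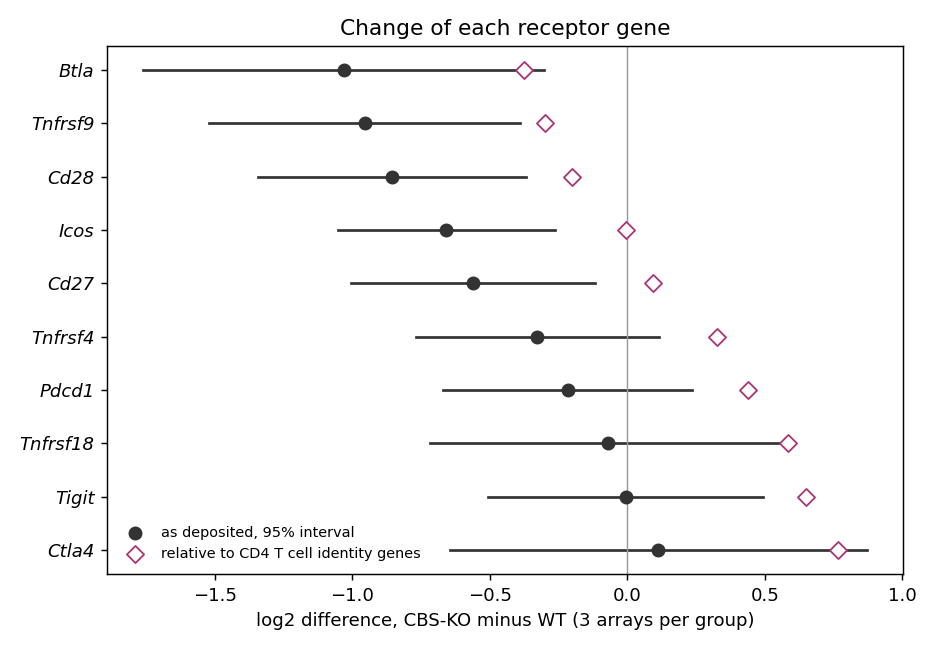
Filled points give the log2 difference of each receptor gene, CBS-KO minus WT, with its 95% confidence interval from limma (3 arrays per group), and open diamonds the difference after each array was shifted to a common mean of the CD4 T cell identity genes. The order of the genes runs from Btla (-1.03) to Ctla4 (0.11), and the diamonds lie to the right of the points for every gene.

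A ratio of 2 genes within an array does not depend on how the arrays are scaled against each other. Over the 45 pairs of members, the log2 ratio did not overlap between the groups in 25 (55.6%). The share was 47.6% for the ratios of a member to any other tested gene. The exact permutation p cannot go below 0.1 in this design, and adjustment over the 45 pairs cannot lower it. No pair could therefore pass the threshold, whatever its ratios (smallest Benjamini-Hochberg adjusted exact permutation p = 0.18). The log2 ratio of Cd28 to Ctla4 was 1.99, 2.45 and 1.67 in WT and 1.04, 0.93 and 1.23 in CBS-KO, a shift of -0.97 (two-sided exact permutation p = 0.1, the smallest that the design allows). The ratio of Icos to Ctla4 shifted by -0.77 without overlap (exact permutation p = 0.1). For Cd28 and Icos the groups overlapped, with a shift of -0.20 (exact permutation p = 0.4), as they did for the chromosome 4 neighbours Tnfrsf4 and Tnfrsf18 (-0.26, exact permutation p = 0.2).

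**Figure D4:**
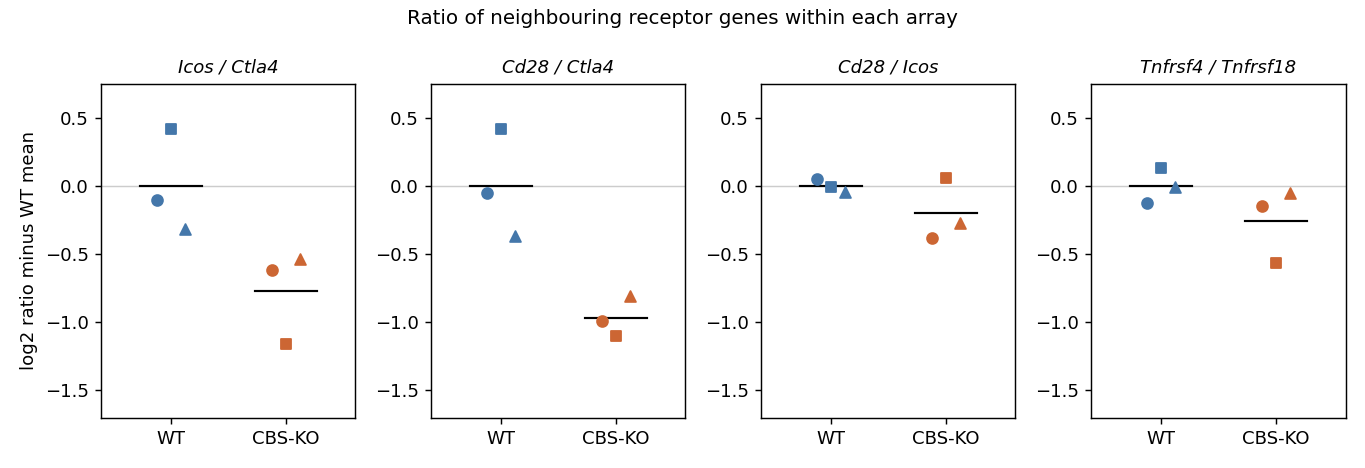
Each panel plots the log2 ratio of 2 receptor genes within an array, minus its WT mean, for the WT and CBS-KO arrays; shapes are replicate numbers and bars means. The ratios of Icos and Cd28 to Ctla4 are lower in every CBS-KO array than in any WT array (mean shifts of -0.77 and -0.97), and the ratios of Cd28 to Icos and of Tnfrsf4 to Tnfrsf18 overlap between the groups.

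The ligands of these receptors are mostly made by antigen-presenting cells. Of 13 ligand genes on the array, 8 were tested, 1 was called higher and 1 lower, where 6.62% and 4.45% of the 12776 tested genes were. Tnfrsf14, which encodes HVEM, the partner of BTLA, rose by 0.64 (SE 0.13, limma adjusted p = 0.036), with intensities of 2329, 2570 and 1950 in WT and 3759, 3166 and 3726 in CBS-KO. Pvr, which encodes the TIGIT ligand CD155, fell by 1.04 (SE 0.23, 0.0392). Both calls were lost without WT 1, WT 2, WT 3 or CBS-KO 1, and that of Tnfrsf14 also without CBS-KO 3. Cd80 differed by 0.77 (0.103) and Pdcd1lg2 by -0.38 (0.16), and neither passed. Tnfsf9, Cd70, Nectin3, Tnfsf4 and Tnfsf18 lay under the filter, with log2 levels of at most 6.88 on any array.

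Of 23 tested related receptors, 6 were called lower and 1 higher, against 4.45% and 6.62% of all tested genes, and 18 had negative differences (median -0.61, against -0.01 over all tested genes). Cd96 and Cd226, receptors that share the ligand CD155 with TIGIT, fell by 1.13 (SE 0.08, limma adjusted p = 0.00263) and 1.08 (SE 0.22, 0.0342), while Tigit differed by -0.01. Cd96 was even among the CBS-KO arrays, with log2 differences from the WT mean of -1.11, -1.13 and -1.15, and kept its call in 18 of 19 settings, the exception being the shift to a common identity mean (0.0901). Cd40lg, the ligand through which T cells help B cells, fell by 1.27 (SE 0.21, 0.021), Tnfrsf25, the receptor DR3, by 0.92 (0.0346), Cd200 by 0.88 (0.0462) and the adhesion receptor Cd2 by 0.80 (0.0476). Cd244a, which is also expressed by NK cells and myeloid cells, rose by 1.21 (SE 0.26, 0.0401). Each of these calls but that of Cd96 was lost without WT 1, WT 2, WT 3 or CBS-KO 1, and that of Cd200 without CBS-KO 3. Cd2, Cd5 and Cd6 of this list are also in the identity list, and Klrg1 in the regulatory list. Among inhibitory receptors, Lag3 differed by -0.16 (0.446), Vsir by -0.33 (0.3) and Havcr2 by 1.46 (0.0536), none past the threshold.

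Downstream of the receptors, 2 of 35 tested signalling genes were called lower and 0 higher (median -0.32), where 4.45% of all tested genes were called lower and 6.62% higher, so the lower share was near that of all genes. The difference was negative in 30, against 57.2% of all tested probe sets. The groups did not overlap in 22 with CBS-KO lower and in 2 with CBS-KO higher, against 21.7% and 15% of all tested probe sets. Trat1, an adaptor that associates with the T cell receptor and CTLA-4, fell by 1.5 (SE 0.16, limma adjusted p = 0.00835), a call lost without WT 1 or WT 2. Traf5, an adaptor of CD27 and OX40, fell by 0.88 (SE 0.18, 0.0363), a call lost without WT 1, WT 2, WT 3 or CBS-KO 1. Next by p came Rc3h2, an mRNA-decay factor related to roquin, at -0.54 (0.0521), and Prkcq, the kinase that links CD28 to NF-kB, at -0.71 (0.0633), neither past the threshold. Without CBS-KO 2, 20 signalling genes were called lower and 2 higher, and 15 and 2 of the related receptors, where 14.6% and 16.3% of all tested probe sets were.

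Of 25 tested genes that respond to activation or regulate the receptors, 2 were called lower and 0 higher (median -0.29), against 4.45% and 6.62% of all tested genes. These were Satb1, a chromatin organiser of T cells (-1.07, SE 0.19, limma adjusted p = 0.0269), and Batf, an AP-1 family factor (-0.59, SE 0.12, 0.0346). Both calls were lost without WT 1, WT 2, WT 3 or CBS-KO 1, that of Batf also without CBS-KO 3, and Batf had a difference of 0.06 relative to the identity mean. Egr2 (-0.85, 0.05001) and Bach2 (-1.07, 0.0508) lay just above the threshold. Il2ra, the interleukin 2 receptor chain of activated and regulatory cells, differed by -0.76 (0.15). Of 15 tested regulatory T cell genes, of which Il2ra is also in the activation list, only Lrrc32, which displays latent TGF-beta, was called lower (-1.43, SE 0.24, 0.0228), where 4.45% of all tested genes were, a call lost without WT 1, WT 2, WT 3 or CBS-KO 1. Next by p were the ectoenzyme gene Nt5e (-0.98, 0.0638) and the transcription factor genes Ikzf4 (-0.59, 0.071) and Ikzf2 (-0.59, 0.0925). Foxp3, which specifies the regulatory lineage, had intensities of 1847, 1653 and 1786 in WT and 1664, 2033 and 920 in CBS-KO (difference -0.27, limma adjusted p = 0.565). CBS-KO 2 was the highest and CBS-KO 3 the lowest of all arrays, as in Ctla4 and Tnfrsf18. The means of the B cell list (10.81 and 8.80) and the CD8 T cell list (9.95 and 9.22) had these extremes too. The share of all tested probe sets with them was not counted. The mean of the regulatory list stood -0.14, 0.03 and -0.75 from WT in CBS-KO 1 to 3.

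The genes whose 6 array values, each relative to its WT mean, lay nearest to those of Cd28 among 12766 other tested genes were Rufy2, Grap and Ikbke, with root mean square differences of 0.04, 0.05 and 0.05 log2 units. Those nearest to Ctla4 were Slamf7 (0.09), Podnl1 (0.12) and Tnfaip3 (0.14).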

How the data were processed

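Per the labels' protocols, RNA came from a Qiagen kit, and 6 ug of it went into biotin-labelled cRNA for Affymetrix arrays. The authors deposited 1 linear intensity per probe set and array; how these were background-corrected, normalized and summarised is not stated in the labels. Median log2 levels of the arrays lay between 7.37 and 7.55, and 3 arrays per group limit the precision. The values were taken as log2(intensity + 16), so the fold of a dim gene is understated, and probe sets with a mean above the 40th percentile were tested. Groups came from the titles. A two-sided limma 3.58.1 model (R 4.3.3, trended eBayes) was fitted to all 20856 tested probe sets and tested on simulated data; figures used matplotlib 3.10.9. Each gene of a list was represented by its brightest tested probe set annotated to 1 gene. Named were all members, all called genes of each pathway list (ligands, related receptors, signalling, activation, regulatory T cell), the genes of smallest p up to 4 where fewer were called, and the 3 genes nearest to Cd28 and to Ctla4; genes beyond these (Lag3, Vsir, Havcr2, Foxp3, Il2ra and the genes of the cell type marker lists) were chosen after their values were seen. The members and lists were chosen with earlier results of these data known. Gene order and promoters are from RefSeq, GRCm38.p6.

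Other settings tried: a common array median, a common identity-gene mean, quantile normalization, no filter or a 60th percentile filter, offsets of 1 and 64, eBayes without trend or robust, the replicate number as a block, sex as a term, probe sets naming 1 gene, a threshold of 1.5-fold, and leaving out arrays 1 at a time.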

Additional observations from a re-analysis of the deposited data

How the results depend on the processing

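Of the 10 receptor genes, Cd28, Icos, Btla and Tnfrsf9 kept a negative difference under all 18 alternatives run for single genes, and Cd28 was called in 9, Icos in 6, Tnfrsf9 in 5 and Btla in 2 of them. With 3 arrays per group, differences of the size seen here lay near the threshold. The number of members called lower, 1 as reported, was 0 after quantile normalization, with no filter, without a trend and with robust eBayes, 3 with a common array median, with the 60th percentile filter and with probe sets naming 1 gene, 7 with sex as a term, and 0 to 5 with an array left out. With a common mean of the identity genes it was 0, with 2 higher. Over all probe sets the counts of 933 lower and 1062 higher became 524 and 602 with no filter, 75 and 7750 with the common identity mean, 2667 and 2309 with sex as a term, and 18 to 3043 and 54 to 3390 with an array left out. The 12 pathway genes called lower and 2 called higher became 20 lower with a common array median, 3 and 24 with the identity mean, 6 and 0 with no filter, 56 lower with sex as a term, 21 and 5 with probe sets naming 1 gene, and 1 to 51 and 0 to 7 with an array left out. The cause of these shifts was not tested. No filter adds tests, and an array left out removes a sample. The total of 1995 calls became 72 without WT 2 and 6433 without CBS-KO 2, so it mattered which array was left out. Signs changed for Tigit with a common array median (0.028), for Ctla4 with sex as a term (-0.49), and with the identity mean for Pdcd1 (0.44), Tigit (0.65), Cd27 (0.095), Tnfrsf4 (0.33) and Tnfrsf18 (0.59). With an array left out, Ctla4 ran from -0.16 to 0.41, Tigit from -0.16 to 0.18 and Tnfrsf18 from -0.34 to 0.21.

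Arrays with the same replicate number had correlated deviations of 0.06, 0.16 and 0.11 for numbers 1 to 3, so the numbers were not taken to pair the samples, although each array correlated best with its own number. With the replicate block 15 pathway genes were called lower and 0 higher; Tnfrsf14, Cd226, Tnfrsf25, Cd200, Cd244a and Batf were not called there, and Cd28 kept its call.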
